A study of Mus musculus with 12 samples.

Results

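The insulin-like growth factor (IGF) axis was followed in mouse hearts as 10 listed genes: the ligands Igf1 and Igf2, the receptors Igf1r and Igf2r, and the binding proteins Igfbp2, Igfbp3, Igfbp4, Igfbp5, Igfbp6 and Igfbp7. Each gene was read on its brightest probe set that carries no other symbol, and 9 of the 10 had such a probe set among 26989 genes. The annotation used here named no probe set for Igf2r, which was not analysed here. The listed genes were taken by name as members of the IGF axis, but the list was chosen with earlier results of these data known. Each of 12 hearts, taken 2 weeks after surgery from male C57BL/6J animals aged 10 weeks, was hybridized to 1 array as total RNA. The 4 groups, of 3 hearts each, were ADAM12 knockout with transverse aortic constriction (TAC), ADAM12 knockout with sham operation, wild-type with TAC and wild-type with sham operation. TAC narrows the aorta and raises the pressure load on the left ventricle. The labels call the 3 hearts of a group biological replicates. They name neither the construct of the knockout nor the cells it acts in.

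IGF-1 and IGF-2 are secreted peptides that act on cells through the tyrosine kinase receptor IGF1R, which drives growth and survival signalling, in cardiomyocytes among other cells. The mannose 6-phosphate receptor encoded by Igf2r removes IGF-2 from the cell surface. Binding proteins carry both peptides in blood and tissue, and they hold them away from the receptor or release them when proteases cut the binding protein. ADAM12 is a membrane-anchored metalloprotease, and the proteins of Igfbp3 and Igfbp5 are known substrates of it in vitro. The arrays measured RNA, so cleavage of a binding protein is outside what they can show.

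Values are log2 signals of a probe set. A difference of 1 is a change of 2-fold on this scale, and the level of one gene cannot be set against that of another, because probe sets differ in brightness. Differences were tested with limma across all 26989 genes, and a gene was called at a Benjamini-Hochberg adjusted p under 0.05. Differences are given ± the standard error of limma, and levels ± the standard deviation over 3 arrays. The array medians ran from 4.93 to 5.10. The 95th percentile of the antigenomic background probe sets lay between 5.20 and 5.93, and of the 9 genes only Igfbp2 lay below it, on all 12 arrays.

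The targeted gene, Adam12, shares its probe set with 5830403F22Rik, and this set lies below the same background percentile. It read 4.25, 4.40 and 4.36 in knockout TAC hearts and 4.33, 4.40 and 4.32 in knockout sham hearts. It read 4.56, 4.73 and 4.80 in wild type TAC hearts and 4.54, 4.46 and 4.61 in wild type sham hearts. The knockout arrays thus lay below the wild type arrays after either surgery, but neither difference passed when limma was fitted to every probe set, at -0.37 ± 0.09 after TAC (adjusted p = 0.163) and -0.19 ± 0.09 after sham (adjusted p = 0.868). Whether the probes lie inside the deleted stretch is unknown here, so these values are a weak check of the labels. Of 12 cardiomyocyte markers 11 were measured, and in no group did any of them lie below the background percentile on all arrays.

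TAC raised Igf1, Igfbp4, Igfbp5, Igfbp6 and Igfbp7 in knockout hearts, by 1.66-fold to 3.21-fold. For these 5 genes the promoter sequence is shown, because they were the members that moved together. Each line gives the 250 bases before the transcript start used by the RefSeq promoter table (build GRCm38.p6), 5′ to 3′ on the gene's strand. For Igfbp5, Igfbp6 and Igfbp7 this is the first base of the annotated gene, while for Igf1 and Igfbp4 it lies 2846 and 1239 bases inside the annotated gene span. Capitals mark every match, on either strand and with overlaps allowed, to 1 of 6 motifs. These were the box TATAAA near the start of many genes, the Sp1 motif GGGCGG, the AP-1 motif TGANTCA, the STAT motif TTCNNNGAA, the FOXO motif GTAAACA and, by its name, the CArG box.
Igf1, chr10:87860861-87861110, forward strand: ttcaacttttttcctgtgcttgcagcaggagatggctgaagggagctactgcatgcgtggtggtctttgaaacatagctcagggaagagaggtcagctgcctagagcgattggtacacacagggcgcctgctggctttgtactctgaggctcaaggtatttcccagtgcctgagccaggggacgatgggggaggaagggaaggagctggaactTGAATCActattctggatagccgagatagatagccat
Igfbp4, chr11:99040994-99041243, forward strand: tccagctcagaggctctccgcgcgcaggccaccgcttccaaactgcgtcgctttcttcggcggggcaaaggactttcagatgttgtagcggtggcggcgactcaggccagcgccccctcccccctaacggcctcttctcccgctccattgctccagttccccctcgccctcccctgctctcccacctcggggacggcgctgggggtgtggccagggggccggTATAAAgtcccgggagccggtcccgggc
Igfbp5, chr1:72874866-72875115, reverse strand: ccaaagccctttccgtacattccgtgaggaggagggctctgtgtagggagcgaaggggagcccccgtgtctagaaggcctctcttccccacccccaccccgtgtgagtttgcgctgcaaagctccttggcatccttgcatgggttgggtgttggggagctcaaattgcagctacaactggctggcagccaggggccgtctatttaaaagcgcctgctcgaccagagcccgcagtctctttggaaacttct
Igfbp6, chr15:102143936-102144185, forward strand: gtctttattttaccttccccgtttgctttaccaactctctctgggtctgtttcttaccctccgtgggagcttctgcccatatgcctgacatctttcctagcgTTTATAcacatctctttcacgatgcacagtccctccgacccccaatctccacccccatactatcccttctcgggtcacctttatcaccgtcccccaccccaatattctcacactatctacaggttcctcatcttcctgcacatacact
Igfbp7, chr5:77408046-77408295, reverse strand: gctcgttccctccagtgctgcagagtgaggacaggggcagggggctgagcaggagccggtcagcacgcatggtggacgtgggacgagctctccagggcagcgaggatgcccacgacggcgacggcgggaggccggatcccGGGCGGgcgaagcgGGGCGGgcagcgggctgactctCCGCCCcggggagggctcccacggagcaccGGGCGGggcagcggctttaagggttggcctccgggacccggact

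No motif was common to the 5 windows. Igf1 held an AP-1 match from -37 to -31 relative to the start, a motif found in 6.75% of all 32851 promoter windows of this length. Igfbp4 had a TATAAA match on its own strand from -28 to -23. Igfbp6 had one only on the opposite strand and farther from the start, from -148 to -143. On either strand 12.4% of all windows had at least 1. Igfbp7 held 4 Sp1 motifs, a motif of 32.7% of all windows. Igfbp5 held none of the 6. STAT and FOXO matches, which 7.02% and 3.17% of all windows hold, were absent from these 5, as was the CArG box of 1.47% of windows. These windows do not speak to binding elsewhere in the genes. The windows of Igfbp7 and Igfbp4 were rich in G and C (74.0% and 69.2%), while those of Igf1 and Igfbp6 had 52.8% and 49.6%, against a median of 52.4% over all windows.

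**Figure D1:**
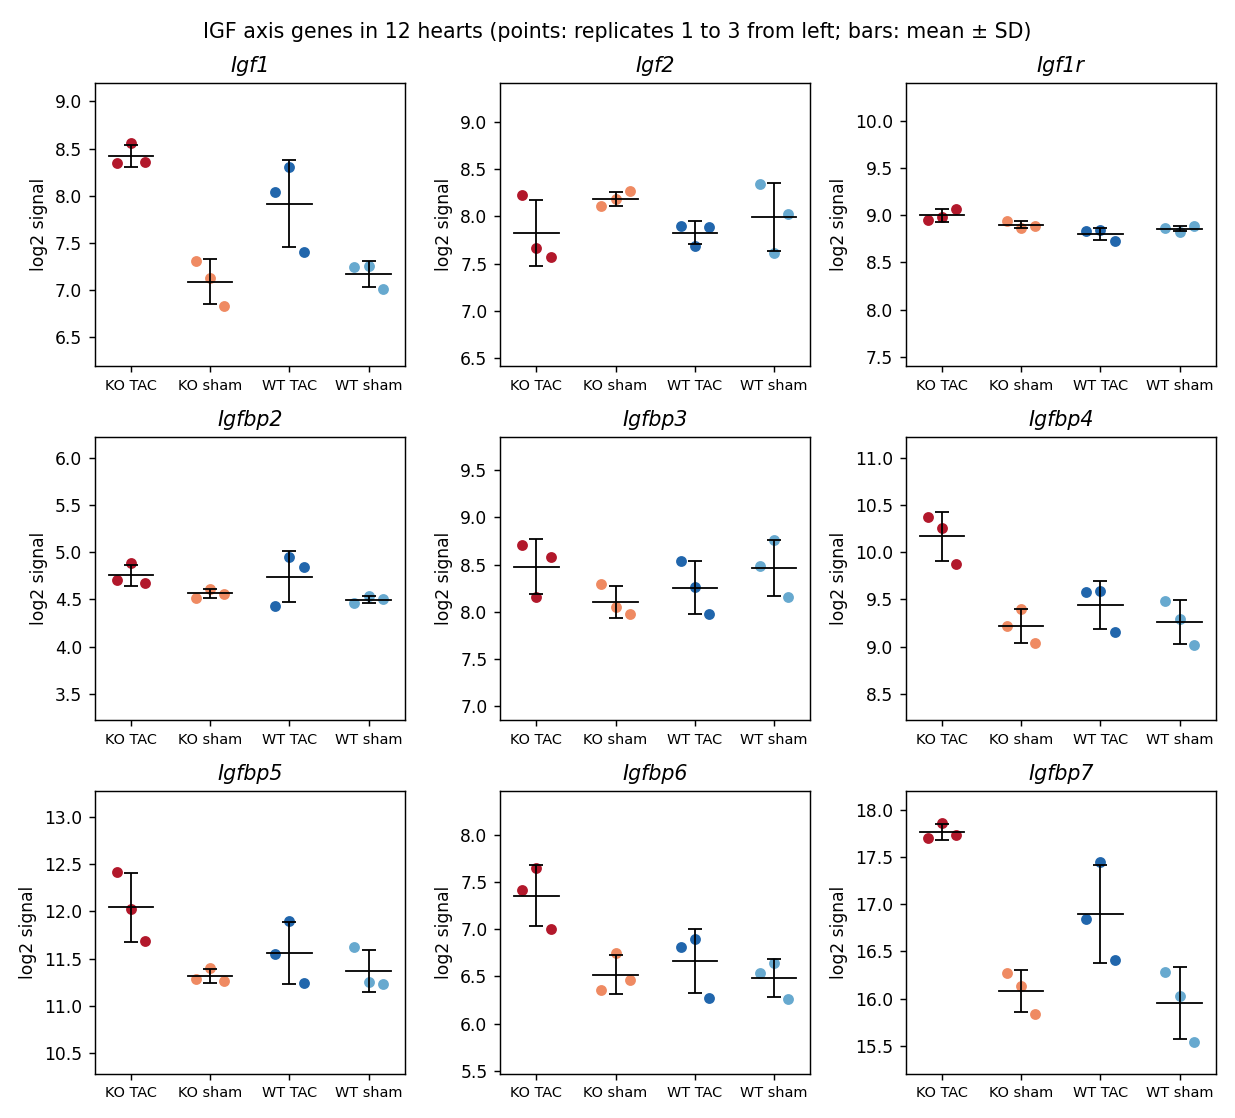
Log2 signal (vertical axis, a span of 3 units in each panel) of the 9 measured IGF axis genes in knockout TAC, knockout sham, wild type TAC and wild type sham hearts; points are replicates 1 to 3 from left to right, and bars are the mean ± SD (n = 3). The knockout TAC hearts stand above the knockout sham hearts without overlap for Igf1, Igfbp4, Igfbp5, Igfbp6 and Igfbp7, while wild type TAC replicate 3 lies near the sham hearts for several genes.

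Among the ligands, Igf1 rose after TAC in knockout hearts. It read 8.35, 8.56 and 8.36 in knockout TAC hearts, against 7.31, 7.13 and 6.83 in knockout sham hearts. The 3 TAC hearts lay close together and more than 1 unit above the highest sham heart. The difference was 1.33 ± 0.20, or 2.52-fold (limma adjusted p = 0.00131). Igf1 in wild type hearts read 8.04, 8.31 and 7.41 after TAC and 7.25, 7.25 and 7.01 after sham. The groups did not overlap here either, although wild type TAC replicate 3 was only slightly above the sham hearts. The difference of 0.75 ± 0.20 did not pass (limma adjusted p = 0.152). Without that replicate it was 1.00 and passed (limma adjusted p = 0.0226).

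Igf2, the ligand that is prominent in fetal growth, showed no change past the test. It read 8.22, 7.67 and 7.57 in knockout TAC hearts, against 8.11, 8.18 and 8.27 in knockout sham hearts. Knockout TAC replicate 1 stood with the sham hearts and the other two lay below them. The difference was -0.37 ± 0.19 (95% interval -0.78 to 0.05, limma adjusted p = 0.271). Igf2 in wild type hearts read 7.90, 7.68 and 7.89 after TAC and 8.34, 7.62 and 8.03 after sham, and the groups overlapped (-0.17 ± 0.19, limma adjusted p = 0.779). The sign of its difference was thus opposite to that of Igf1 in both genotypes.

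Igf1r, the signalling receptor, varied least of the 9 genes, with a span of 0.34 over the 12 arrays. It read 8.94, 8.98 and 9.07 in knockout TAC hearts, against 8.94, 8.87 and 8.89 in knockout sham hearts, a difference of 0.10 ± 0.07 (95% interval -0.05 to 0.24, limma adjusted p = 0.42). It read 8.83, 8.85 and 8.73 in wild type TAC hearts and 8.86, 8.83 and 8.88 in wild type sham hearts, a difference of -0.05 ± 0.07 (95% interval -0.20 to 0.09, limma adjusted p = 0.796). Changes of Igf1r as large as those of Igf1 lie outside both intervals.

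Among the binding proteins, Igfbp7 had the largest difference. Its protein binds IGFs weakly, is also known as a protein of vessel walls and senescent cells, and in blood is studied as a marker of heart failure. It read 17.70, 17.86 and 17.73 in knockout TAC hearts, against 16.27, 16.14 and 15.84 in knockout sham hearts. The groups were far apart, and the difference was 1.68 ± 0.24, or 3.21-fold (limma adjusted p = 0.00112). In wild type hearts it read 16.84, 17.44 and 16.41 after TAC and 16.29, 16.03 and 15.54 after sham. The groups did not overlap, but TAC replicate 3 was again the lowest, and the difference of 0.95 ± 0.24 did not pass (limma adjusted p = 0.139). Without that replicate it was 1.19 and passed (limma adjusted p = 0.0418).

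Igfbp4, whose protein releases IGFs when the protease PAPP-A cuts it, read 10.37, 10.26 and 9.87 in knockout TAC hearts, against 9.22, 9.40 and 9.04 in knockout sham hearts. The difference of 0.95 ± 0.17, or 1.93-fold, passed (limma adjusted p = 0.0037). Wild type TAC hearts read 9.58, 9.59 and 9.15, against 9.48, 9.29 and 9.02 in wild type sham hearts, and these groups overlapped. The wild type difference was 0.18 ± 0.17 (95% interval -0.19 to 0.55, limma adjusted p = 0.727).

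Igfbp6, which encodes a binding protein that prefers IGF-2, read 7.42, 7.64 and 7.01 in knockout TAC hearts, against 6.35, 6.75 and 6.46 in knockout sham hearts. The difference was 0.84 ± 0.20, or 1.79-fold (limma adjusted p = 0.0156). Wild type TAC hearts read 6.81, 6.90 and 6.27, against 6.54, 6.65 and 6.26 in wild type sham hearts, with a difference of 0.18 ± 0.20 (limma adjusted p = 0.776). Wild type TAC replicate 3 again read like a sham heart. Igfbp6 lost its knockout call when replicate 1 or 3 of the knockout sham arrays or replicate 1 or 2 of the knockout TAC arrays was left out, with limma adjusted p of 0.0739 at most.

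Igfbp5, whose protein binds extracellular matrix as well as IGFs, read 12.41, 12.02 and 11.69 in knockout TAC hearts, against 11.29, 11.40 and 11.26 in knockout sham hearts. The 3 TAC hearts were spread out but all stood above the sham hearts, by 0.73 ± 0.19, or 1.66-fold (limma adjusted p = 0.0298). The wild type TAC hearts read 11.55, 11.90 and 11.24, against 11.62, 11.25 and 11.23 in wild type sham hearts, with a difference of 0.19 ± 0.19 (limma adjusted p = 0.746). The call in knockout hearts was not firm. Igfbp5 lost its call when any 1 of the 3 knockout sham arrays was left out, and when replicate 1 or 2 of the knockout TAC arrays was, with limma adjusted p of 0.106 at most.

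Igfbp3, whose protein is the main IGF carrier of blood, did not pass in either genotype. It read 8.70, 8.15 and 8.58 in knockout TAC hearts, against 8.29, 8.05 and 7.97 in knockout sham hearts, and the groups overlapped (0.37 ± 0.19, 95% interval -0.04 to 0.79, limma adjusted p = 0.263). The wild type TAC hearts read 8.53, 8.26 and 7.98, against 8.48, 8.76 and 8.16 in wild type sham hearts (-0.21 ± 0.19, limma adjusted p = 0.717). Igfbp2 encodes a carrier that is abundant in fetal serum. It read 4.70, 4.88 and 4.67 in knockout TAC hearts and 4.51, 4.61 and 4.56 in knockout sham hearts, then 4.43, 4.94 and 4.84 in wild type TAC hearts and 4.46 to 4.53 in wild type sham hearts. All 12 values are below the background percentile, so no fold is given. It neighbours Igfbp5 on chromosome 1 in RefSeq (GRCm38.p6) with 0 genes starting between them.

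In all, 5 of the 9 measured genes rose and 0 fell after TAC in knockout hearts, where 12.8% of all genes were called, 7.08% as higher and 5.68% as lower. Their median difference was 0.73, against -0.03 over all genes. Separation without overlap was seen for 7 of the 9 genes, and for 32.3% of all genes. Besides the 5 called genes these included Igfbp2, which lay below background, and Igf1r, whose groups nearly touched. The lowest knockout TAC heart read 8.944 for Igf1r and the highest knockout sham heart 8.942. In wild type hearts 0 of 9 passed by limma, where 0.178% of all genes were called (0.0667% higher, 0.111% lower). There 2 of 9, Igf1 and Igfbp7, had an unadjusted p under 0.05, against 3330 of all 26989 genes. Over all genes the limma calls split into 18 higher and 30 lower. The split was 36 higher and 34 lower after quantile normalization and 0 higher and 9 lower after centring of the array medians. The members' median difference there was 0.18, against 0.02 over all genes, and 2 of 9 genes separated without overlap, against 16.1% of all genes. With both genotypes weighed alike 5 of 9 rose and 0 fell, where 13.6% of all genes were called (7.49% higher, 6.12% lower). They were Igf1 (1.04 ± 0.14), Igfbp7 (1.31 ± 0.17), Igfbp4 (0.56 ± 0.12), Igfbp6 (0.51 ± 0.14) and Igfbp5 (0.46 ± 0.14, limma adjusted p = 0.0469). In the 12 fits that leave out 1 array each, Igfbp6 kept this call in 4 and Igfbp5 in 3.

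**Figure D2:**
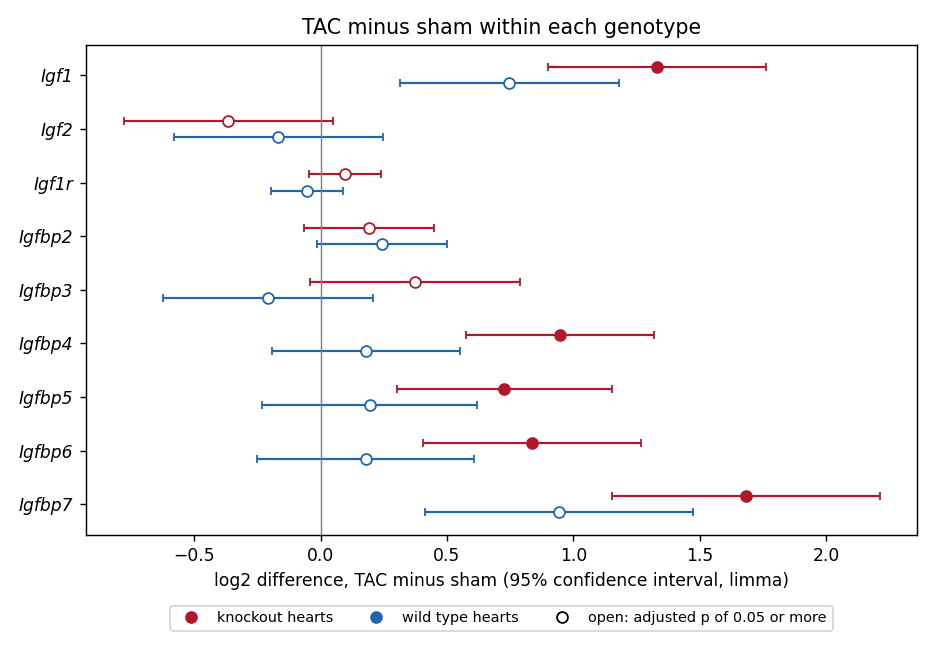
Log2 difference between TAC and sham hearts (horizontal axis, with the unadjusted 95% interval of limma) for each of the 9 genes (vertical axis), in knockout and in wild type hearts; filled points passed at an adjusted p under 0.05. The 5 filled points are all in knockout hearts, from 0.73 for Igfbp5 to 1.68 for Igfbp7, and the intervals of Igf1r are the narrowest.

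The same genes were then compared between genotypes after TAC, which asks whether a heart without ADAM12 differs under load. By limma 0 of 9 passed, where 0.0111% of all genes did. An unadjusted p under 0.05 was seen for 6 of 9, against 3928 of all 26989 genes. Differences were positive for 8 of 9 genes, with a median of 0.48 against -0.04 over all genes. Igfbp4 averaged 10.17 ± 0.26 in knockout TAC hearts and 9.44 ± 0.25 in wild type TAC hearts, and the groups did not overlap (0.72 ± 0.17, limma adjusted p = 0.0777). Igfbp7 averaged 17.76 ± 0.09 in knockout TAC hearts and 16.90 ± 0.52 in wild type TAC hearts (0.87 ± 0.24, limma adjusted p = 0.118). The wild type hearts were the more variable ones, and without wild type TAC replicate 2, the highest of them, the difference of Igfbp7 was 1.14 and passed (limma adjusted p = 0.0196). Igfbp6 averaged 7.36 ± 0.32 in knockout TAC hearts and 6.66 ± 0.34 in wild type TAC hearts (0.70 ± 0.20, limma adjusted p = 0.122).

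Igf1 averaged 8.42 ± 0.12 in knockout TAC hearts and 7.92 ± 0.46 in wild type TAC hearts. The groups did not overlap, although 8.35 in the lowest knockout heart stood close to 8.31 in the highest wild type heart, and the difference of 0.51 ± 0.20 did not pass (limma adjusted p = 0.265). Igf1r averaged 8.997 ± 0.065 in knockout TAC hearts and 8.803 ± 0.062 in wild type TAC hearts, also without overlap (0.19 ± 0.07, limma adjusted p = 0.191). Igfbp5 averaged 12.04 ± 0.36 in knockout TAC hearts and 11.56 ± 0.33 in wild type TAC hearts, and these overlapped (0.48 ± 0.19, limma adjusted p = 0.279). Igf2, Igfbp2 and Igfbp3 had intervals that span 0. In all 5 of 9 genes separated the TAC groups without overlap, against 19.2% of all genes.

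**Figure D3:**
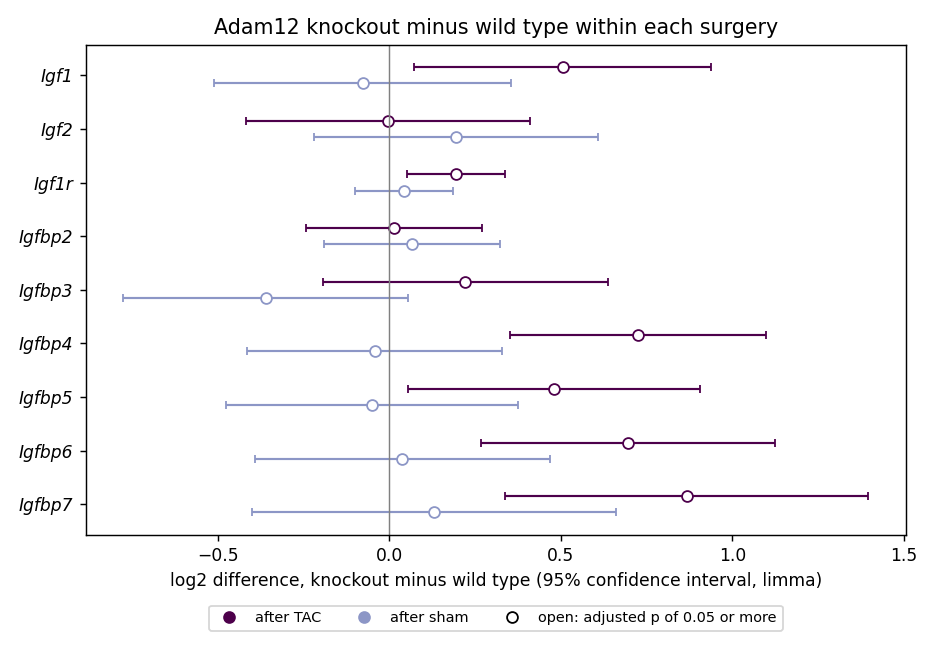
Log2 difference between knockout and wild type hearts (horizontal axis, with the unadjusted 95% interval of limma) for each of the 9 genes (vertical axis), after TAC and after sham operation; all points are open because none passed at an adjusted p under 0.05. After TAC the differences run from -0.00 for Igf2 to 0.87 for Igfbp7, and after sham from -0.36 for Igfbp3 to 0.19 for Igf2.

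After sham operation limma passed 0 of 9 genes, where 0% of all genes were called. Of the 9 genes 0 had an unadjusted p under 0.05, against 1493 of all 26989 genes. Igf1 averaged 7.09 ± 0.24 in knockout sham hearts and 7.17 ± 0.14 in wild type sham hearts (-0.08 ± 0.20, 95% interval -0.51 to 0.36, limma adjusted p = 0.996). Igfbp3 had the largest difference, at 8.10 ± 0.17 in knockout sham hearts and 8.47 ± 0.30 in wild type sham hearts (-0.36 ± 0.19, limma adjusted p = 0.911). For none of the 9 genes were the sham groups without overlap, against 12.3% of all genes. The interaction, which asks whether the TAC response itself differed between genotypes, called 0 of 9 genes by limma, where 0% of all genes were called. While 2962 of all 26989 genes had an unadjusted p under 0.05 for the interaction, so did 2 of 9. These were Igfbp4 (0.77 ± 0.24, 95% interval 0.24 to 1.29, limma adjusted p = 0.287) and Igfbp6 (0.66 ± 0.28, limma adjusted p = 0.42). For Igf1 the interaction was 0.58 ± 0.28 (limma adjusted p = 0.47). The larger TAC differences in knockout hearts are therefore not shown to differ from those in wild type hearts. The genotype comparisons after TAC and the interaction share arrays with the TAC comparisons and are not separate evidence.

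Markers of other heart cells moved with the IGF axis genes. In knockout hearts 12 of 13 measured fibroblast markers and 10 of 12 macrophage and monocyte markers rose after TAC, against 7.08% of all genes. The summed fibroblast signal was 18.05 to 18.36 (log2) in knockout TAC hearts, 16.81 to 17.04 in knockout sham hearts, 16.88 to 17.88 in wild type TAC hearts and 16.90 to 17.14 in wild type sham hearts. The summed macrophage and monocyte signal was 15.58 to 16.15 in knockout TAC hearts, 15.22 to 15.57 in knockout sham hearts, 15.46 to 15.71 in wild type TAC hearts and 15.07 to 15.51 in wild type sham hearts. None of the fibroblast markers was below the background percentile on all arrays of a group. Of the macrophage and monocyte markers 1 was so in knockout sham hearts and 0 in the other groups. In a bulk sample more cells of a type and more RNA per cell cannot be told apart, and the part of these markers in the IGF axis results was not tested.

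In wild type TAC hearts the mean of the fibroblast markers was highest in replicate 2 and lowest in replicate 3. The same held for Igf1, Igf1r, Igfbp4, Igfbp5, Igfbp6 and Igfbp7, whereas Igf2, Igfbp2 and Igfbp3 ran in other orders. Relative to the mean of the wild type sham hearts, the fibroblast markers averaged 0.79, 1.32 and 0.19 higher in wild type TAC replicates 1, 2 and 3. In the same hearts Igf1 stood 0.87, 1.14 and 0.23 above and Igfbp7 0.89, 1.49 and 0.46 above. In knockout TAC replicates 1, 2 and 3 the fibroblast markers averaged 1.91, 1.81 and 1.58 higher than in knockout sham hearts. Igfbp4 stood 1.15, 1.04 and 0.65 above in those hearts, Igfbp5 1.10, 0.71 and 0.37, and Igfbp6 0.90, 1.12 and 0.49, each with replicate 3 lowest like the markers. Igf1 (1.26, 1.46 and 1.27) and Igfbp7 (1.62, 1.78 and 1.65) had another order there, with replicate 1 lowest but nearly level with replicate 3. An order of 3 hearts is a weak measure of likeness and was not tested. The macrophage and monocyte markers averaged 0.99, 1.32 and 0.61 higher in knockout TAC replicates 1, 2 and 3, in the order of Igfbp6. They averaged 0.55, 0.32 and 0.38 higher in wild type TAC replicates 1, 2 and 3, an order unlike that of Igf1 and Igfbp7. The mural markers averaged -0.11, 0.20 and -0.25 in those wild type hearts, with replicate 2 highest and 3 lowest, and 0.40, 0.35 and 0.37 in the knockout TAC hearts. Their summed signal went the other way in knockout hearts, at 16.54 to 16.77 (log2) after TAC and 16.81 to 17.04 after sham. In wild type hearts it was 16.86 to 17.03 after TAC and 16.99 to 17.06 after sham. The summed endothelial signal was 16.08 to 16.31 after TAC and 15.86 to 15.94 after sham in knockout hearts. In wild type hearts the endothelial sum was 16.02 to 16.34 after TAC and 15.85 to 15.88 after sham. The mean of the endothelial markers overlapped there, at 10.86 to 11.30 after TAC and 10.91 to 10.97 after sham. Of the other cell types, 2 of 10 endothelial markers rose in knockout hearts, 2 of 8 mural markers rose and 1 fell, and of 11 cardiomyocyte markers 1 rose and 4 fell. Over all genes 7.08% were called higher in this comparison and 5.68% lower. Atrial markers varied within every group, for example from 10.51 to 13.41 as a mean log2 signal in knockout TAC hearts, and 0 of 6 passed by limma. With the atrial light chain Myl7 as a covariate, a setting added after the data were seen, 5 of 9 IGF axis genes were still called in knockout hearts.

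**Figure D4:**
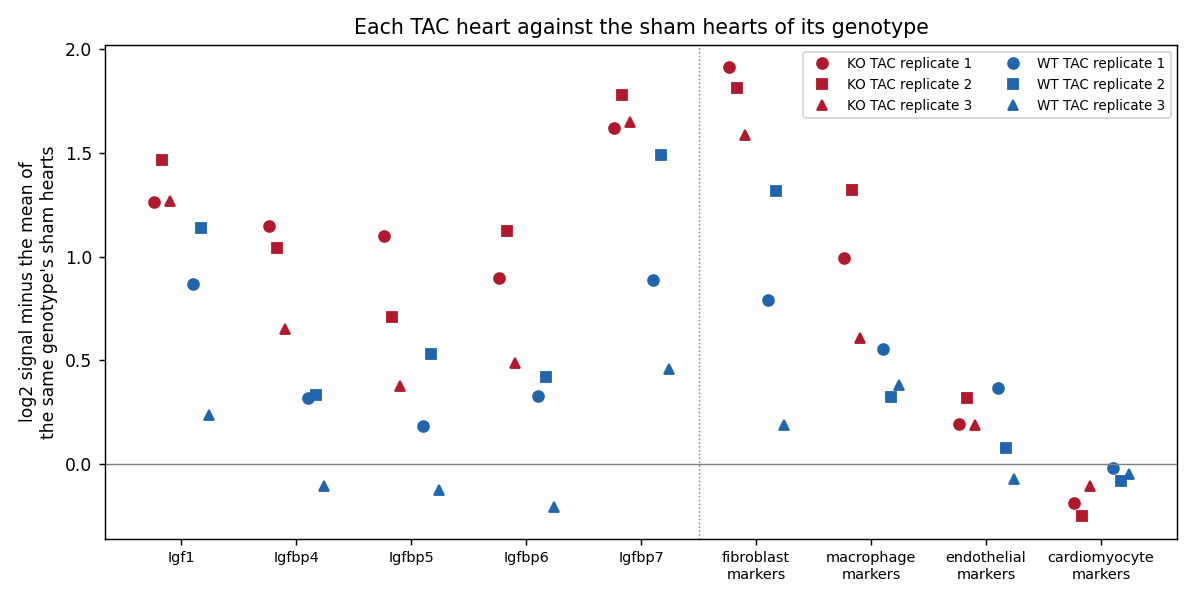
Log2 signal of each TAC heart minus the mean of the sham hearts of the same genotype (vertical axis), for the 5 genes that rose in knockout hearts and for the mean of 4 marker lists (horizontal axis); colours are genotypes and shapes are replicates. Wild type TAC replicate 3 stands lowest of the 6 hearts for Igf1 (0.23), Igfbp7 (0.46) and the fibroblast markers (0.19), and the cardiomyocyte markers lie between -0.25 and -0.02.

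Over the 12 arrays the genes whose pattern was most like that of the 5 risen members were found by Pearson's r, which is given as a measure of likeness only. The arrays fall into 4 groups, and in deviations from the group means r was 0.88 to 0.968 for the 15 pairs that follow. The pairs were picked for their high r over the same 12 arrays, so the values in deviations are not separate evidence of likeness. For Igf1 the most alike genes were Pea15a (r = 0.99), Septin11 (r = 0.984) and Dock10 (r = 0.982). For Igfbp7 they were Tcf12 (r = 0.99), Sparc (r = 0.985), which encodes a matricellular protein, and Tubb2a (r = 0.982). For Igfbp4 they were Itm2c (r = 0.991), Gas6 (r = 0.989) and Wls (r = 0.982), a protein needed to secrete WNT ligands. For Igfbp5 they were Dpt (r = 0.98), a matrix protein on the fibroblast list, Cdh11 (r = 0.977), a cadherin of mesenchymal cells, and Arhgef25 (r = 0.964). For Igfbp6 they were Arrb1 (r = 0.964), Cers6 (r = 0.963) and Dse (r = 0.96). Among the members, Igf1 was most like Igfbp7 (r = 0.976) and Igfbp4 most like Igfbp6 (r = 0.957), while r was -0.546 between Igf1 and Igf2. In deviations from the group means these values were 0.897, 0.851 and -0.274.

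Genes of proteases that can cut binding proteins, and of protease inhibitors, were taken as a further list of 20, and 16 of these had a single-symbol probe set. In knockout hearts 8 of 16 rose and 0 fell after TAC, against 7.08% of all genes called higher and 5.68% called lower, with a median difference of 0.44 against -0.03 over all genes. Mmp3, the protease stromelysin, averaged 8.44 in knockout TAC hearts and 6.71 in knockout sham hearts (1.72 ± 0.20, limma adjusted p = 0.000531). Mmp2, a gelatinase, differed by 2.79 ± 0.44, Plat, the tissue plasminogen activator, by 1.06 ± 0.15, and Adam9, a metalloprotease of the ADAM family, by 0.78 ± 0.09. The other 4 that rose, named after their values were seen, were Mmp14, Mmp19, Prss23 and Stc1, which encodes an inhibitor of PAPP-A. Leaving out single knockout arrays ended the call of Stc1 (without sham 1 or 2 or TAC 1) and of Prss23 (without sham 3 or TAC 1 or 2). Pappa, the gene of PAPP-A itself, was also looked up after the fact and did not pass on its dim probe set (0.24, limma adjusted p = 0.0724), although it passed without knockout sham replicate 2 (0.30, limma adjusted p = 0.0489). In wild type hearts 0 of 16 passed by limma, where 0.178% of all genes were called, but without wild type TAC replicate 3 Mmp2 differed by 2.30 and passed (limma adjusted p = 0.00427). After TAC the difference between knockout and wild type hearts was positive for 12 of the 16 genes. Mmp14 had the largest, at 1.69 ± 0.35, and did not pass (limma adjusted p = 0.0631). It passed without dim genes and with the replicate block (limma adjusted p = 0.0322 and 0.0195), as did Adam9, Plat and Mmp19. Without wild type TAC replicate 2 Mmp14 passed as well (limma adjusted p = 0.00247). In the main fit Mmp3 was the one gene of the list called higher in knockout TAC hearts, where 0.0111% of all genes were called. It averaged 8.44 there against 6.77 in wild type TAC hearts (1.66 ± 0.20, limma adjusted p = 0.044). This call was not firm: it held in 4 of 9 alternatives that keep all arrays (adjusted p of 0.0137 to 0.276) and in 3 of the 12 fits that leave out 1 array (0.00541 to 0.18), always with the same sign.

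Among 11 other IGF axis genes 4 had a single-symbol probe set, and 3 of these lay below the background percentile in every group. The remaining one was Ghr, the growth hormone receptor, through which growth hormone raises Igf1 in liver. Ghr averaged 10.35 in knockout TAC hearts and 10.94 in knockout sham hearts and fell by 0.59 on the log2 scale (limma adjusted p = 0.00167). In wild type hearts it averaged 10.66 after TAC and 10.93 after sham (-0.27 ± 0.09, limma adjusted p = 0.25). Igfbp1, Igfbpl1 and Igf2bp3 were the other measured genes, and none of them passed.

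Of 37 receptor signalling genes 26 were measured, and in knockout hearts 5 rose and 5 fell after TAC, against 7.08% of all genes called higher and 5.68% called lower. The median difference was -0.01, against -0.03 over all genes. Stat5b and Stat5a, the transcription factors that growth hormone activates, fell by 0.56 and by 0.51 on the log2 scale (limma adjusted p = 0.00128 and 0.000961). Grb10, an adaptor that dampens IGF1R and insulin receptor signalling, rose by 0.82 ± 0.10 (limma adjusted p = 0.000625). Shc1, an adaptor that links the receptor to the MAP kinase pathway, rose by 0.51 ± 0.08 (limma adjusted p = 0.00132). The other 6 that passed, named after their values were seen, were Socs2, Ptpn1 and Map2k1, which rose, and Pik3r1, Foxo3 and Akt2, which fell. Of these, Map2k1 lost its call without wild type sham 2, knockout sham 1 or 3 or knockout TAC 2 or 3, and under 4 alternatives that keep all arrays, Pik3r1 without knockout sham 1 or 2 or knockout TAC 2 or 3, and Akt2 without knockout sham 3 or knockout TAC 2. The insulin receptor substrate Irs1 read -0.36 and the kinase gene Akt1 0.18, and neither passed. None of the 26 passed by limma in wild type hearts, where 0.178% of all genes did. The wild type differences were -0.37 for Stat5b, -0.23 for Stat5a, 0.30 for Grb10 and 0.29 for Shc1. Foxo3 differed by -0.52 ± 0.10 there (limma adjusted p = 0.0824), near its knockout difference of -0.56. It passed without dim genes, with array weights and with the replicate block (limma adjusted p = 0.0382, 0.0311 and 0.0404). Stat5b passed without dim genes (limma adjusted p = 0.0456). Between genotypes 0 of 26 passed after TAC, where 0.0111% of all genes did, and 0 of 26 after sham, where 0% did. Ptpn1, Shc1 and Socs2 differed after TAC by 0.39, 0.35 and 0.41 (limma adjusted p = 0.0592, 0.0675 and 0.0981). These 3 passed without dim genes (limma adjusted p = 0.03, 0.0315 and 0.0469), where 640 genes were called. Ptpn1 also passed with the replicate block (limma adjusted p = 0.0326).

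**Figure D5:**
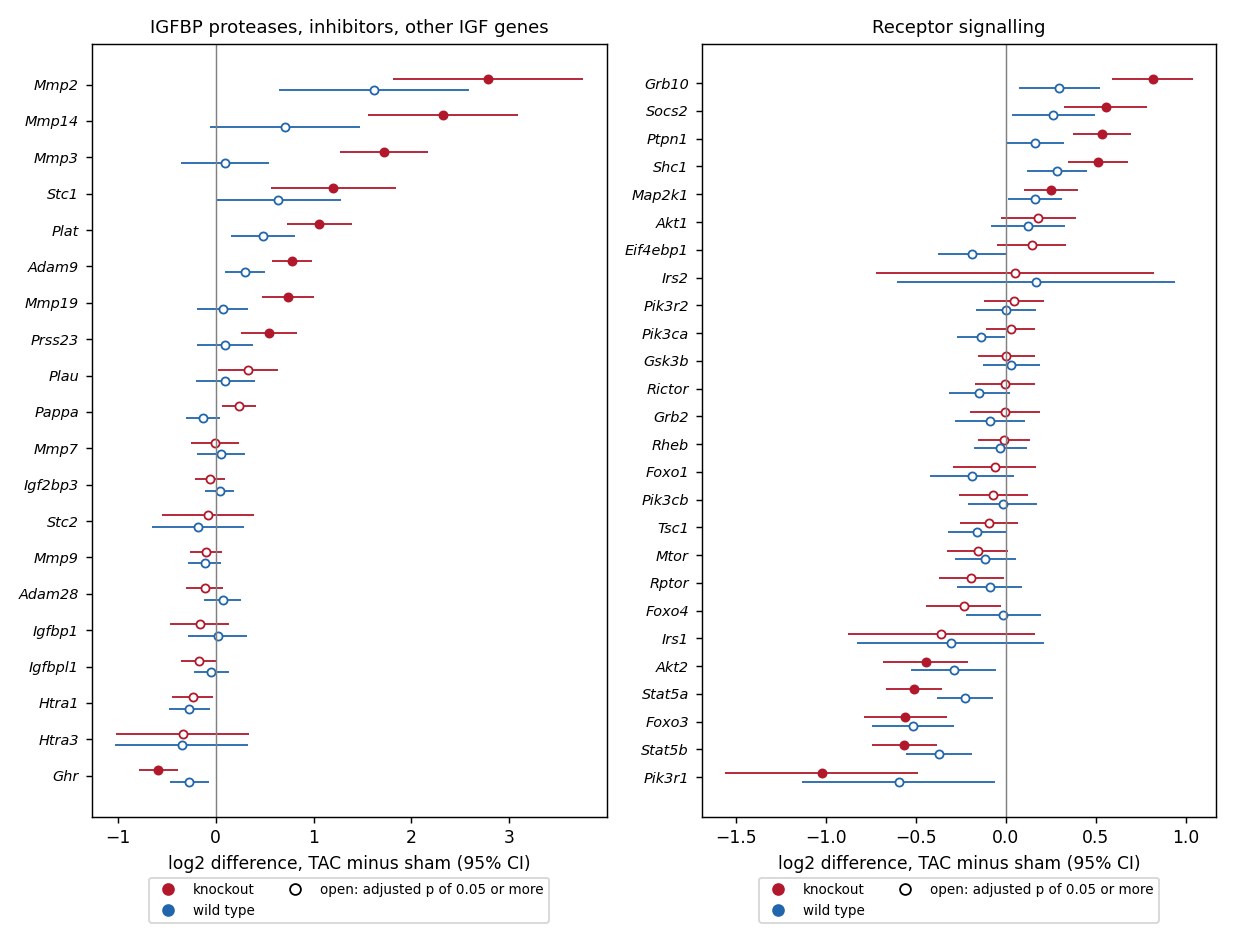
Log2 difference between TAC and sham hearts (horizontal axis, with the unadjusted 95% interval of limma) in knockout and in wild type hearts for 16 genes of IGFBP proteases and their inhibitors with 4 other IGF axis genes (left) and for 26 receptor signalling genes (right), ordered by the knockout difference; filled points passed at an adjusted p under 0.05. Mmp2 (2.79), Mmp14 and Mmp3 (1.72) lead the left panel and Ghr (-0.59) closes it, while the right panel runs from Grb10 (0.82) to Pik3r1 (-1.02).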

How the data were processed

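Heart RNA of 12 mice (250 ng each) was biotin-labelled and hybridized to Affymetrix Clariom D mouse arrays by the authors, per the labels. The deposited table holds 1 log2 signal per probe set and array, made with Affymetrix Expression Console per the submitters' processing notes; its version, normalization and summarization are not given in the sources used here. The log2 scale was read from the range of values, 1.28 to 19.93. Of 65527 probe sets 6732 controls were left out, and of the others 27268 carried 1 symbol, 1932 several and 29595 none. The brightest single-symbol probe set stood for each of 26989 genes, without a filter on dim genes.

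Limma 3.58.1 in R 4.3.3 fitted 1 mean per group over the 12 arrays, with 2-sided moderated tests (prior degrees of freedom 3.29, residual 8) and Benjamini-Hochberg adjustment over all genes. The procedure was tested on simulated data. The members, further lists, marker lists and the rule for named genes (all members, the 4 genes of smallest p in the averaged TAC comparison from each further list, and the 3 genes most alike in pattern to each called member, predicted genes, small RNAs and chemosensory receptors aside) were chosen with earlier results of these data known. Replicate numbers are shared by the groups, and the labels tie no number to a litter or day. Deviations from group means correlated above 0.1 in all 3 same-numbered pairs of knockout TAC and knockout sham hearts (0.254, 0.143 and 0.173), where the replicate block left the same 5 genes called, but not in every pair of any other 2 groups compared (7 of 12 pairs in all). No batch is named in the labels, and 3 arrays a group limit the precision. Alternatives were other scalings, a filter on dim genes, other variance models, array weights, all probe sets, only the groups compared, a replicate block and leaving out each array.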

Additional observations from a re-analysis of the deposited data

Results flagged for a closer look

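The TAC differences of Igf1r had opposite signs in the genotypes: each of the 3 knockout TAC hearts lay above the mean of the knockout sham hearts, and each of the 3 wild type TAC hearts lay below the mean of the wild type sham hearts. The difference between the TAC responses was 0.15 ± 0.09 and did not pass (limma adjusted p = 0.573). Opposite moves of this kind were seen for 6.37% of all genes.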

How the results depend on the processing

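Of the calls, Igf1, Igfbp4 and Igfbp7 kept theirs in knockout hearts and in the averaged comparison under every alternative run. Leaving out single arrays gave 3 to 5 genes called in knockout hearts (3 when knockout sham 1 or 3, or knockout TAC 1 or 2, was left out, 4 when knockout sham 2 was, 5 otherwise, as with all arrays and under each alternative that keeps them), 0 to 2 in wild type hearts (2 without wild type TAC replicate 3), 3 to 5 in the averaged comparison (3 without wild type sham 3, wild type TAC 2, knockout sham 1 or 3, or knockout TAC 1 or 2) and 0 to 1 between the TAC groups (1, Igfbp7, without wild type TAC replicate 2). In wild type hearts 2 genes, Igf1 and Igfbp7, were called with array weights and 2 with the replicate block, against 0 without. In the averaged comparison 3 were called with all probe sets tested. Between the TAC groups 1, Igfbp4, was called without dim genes and 3, Igfbp4, Igfbp6 and Igfbp7, with the replicate block; the other alternatives gave 0. After sham and for the interaction 0 were called under every alternative. Igfbp2 was called in the averaged comparison without wild type TAC replicate 1. Of 1110 differences under alternatives 25 changed sign, and none of these was called. For these changes the cause was not tested. Over all genes, counts ran from 2098 (without knockout TAC replicate 2) to 4438 in knockout hearts (3444 as reported), from 0 to 352 in wild type hearts (48; 352 with array weights, 266 with the replicate block), from 0 to 774 between the TAC groups (3; 640 without dim genes, 593 with the replicate block) and from 0 to 151 for the interaction (0); the highest values of the last 2 came without wild type TAC replicate 2. No member has another probe set to try. Signal near background limits Igfbp2.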
